A study of Homo sapiens with 6 samples.

Results

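The comparison described here is that of HuCCT1 cells treated with the lower dose of regorafenib, 1 μM by the sample labels, with HuCCT1 cells treated with solvent. HuCCT1 is a cell line derived from human bile duct carcinoma, and regorafenib is an oral inhibitor of several receptor tyrosine kinases and RAF kinases. Each condition was measured on 1 Affymetrix array, so the comparison uses 2 of the 6 arrays of the series. The other 4 are HuCCT1 cells at the higher dose (10 μM by the labels) and KKU-100 cells, also from bile duct carcinoma, with solvent and with both doses. The labels of all 6 samples also describe cells that were stably transduced and selected with puromycin for 2 weeks, without naming a construct, so the solvent cells share that treatment. The paper gives other doses than the labels, and the arrays are therefore called low dose and high dose. All differences are between single arrays, have no replicate check and carry no p-value.

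Changes were described over probe sets whose mean log2 signal on the 2 arrays reached the median of all probe sets, a signal of 29 in the deposited linear unit. Of 19775 genes with a probe set annotated to them alone, 12803 passed this level filter. A gene with several such probe sets is described by the brightest of them, judged by the mean over both arrays. Calls of higher or lower were made where the low-dose signal differed from the solvent signal by more than 1.5-fold, the cutoff of the study, which is 0.585 on the log2 scale. Several measures bear on the quality of the pair of arrays. Their median signals were 28.8 with solvent and 29.3 at the low dose, none of the 62 control probe sets passed 1.5-fold, and the 9 hybridization spike-ins differed by log2 values between −0.14 and 0.09. The ratio of 3′ to 5′ signal was 1.13 and 1.18 for ACTB and 1.03 and 1.04 for GAPDH. Of 11 housekeeping genes past the filter, none was called, with log2 fold changes from −0.52 for TBP to 0.17 for SDHA.

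The labelled cell type was compared with its markers. Of 9 bile duct epithelium markers with a probe set, 8 passed the filter, among them KRT7, KRT8, KRT18, KRT19, EPCAM and MUC1, and SPP1 did not. Their summed signal was 44012 with solvent and 44402 at the low dose. The summed signals of the other cell types were far lower: 226 and 235 for hepatocyte markers, 142 and 172 for endothelial markers and 235 and 262 for leukocyte markers, with ALB, CDH5 and PTPRC all below the filter. Fibroblast markers summed to 341 with solvent and 523 at the low dose, and 2 of the 4 past the filter were higher, LUM and COL1A1. LUM had a signal of 24.5 with solvent and 83.2 at the low dose, so it passed the filter only through the array on which it was higher. COL1A1 had 0.64, with further probe sets down to −0.01. COL1A2, COL3A1 and PDGFRB were below the filter. The part of these markers in the changes below was not tested.

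Regorafenib blocks kinases at the cell surface and RAF, which passes their signal through MEK to the kinase ERK. ERK activity drives rapid transcription of immediate early genes such as EGR1 and FOSL1, and of its own inhibitors, the dual-specificity phosphatases (DUSP) and the Sprouty and Spred proteins. Transcripts of these genes are short-lived and are widely used as a readout of ERK output. Cells answer a lack of amino acids through the integrated stress response. In it, the transcription factor ATF4 induces enzymes and transporters that supply amino acids.

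Among the 12803 genes, 472 (3.69%) were higher after the low dose and 433 (3.38%) were lower, and 11898 (92.9%) stayed within 1.5-fold. The median log2 fold change of all genes was 0.02, with quartiles of −0.16 and 0.18 and an SD of 0.34. Past 2-fold, 124 genes were higher and 82 lower, and past 4-fold 7 were higher and 4 lower. The closest genes to the cutoff were at 0.5851 inside and 0.5847 outside on the higher side, and at −0.5851 and −0.5845 on the lower side, so the counts rest on a cutoff with no gap in the values around it. A gene can pass the filter through a single array, and 53 of the higher genes had a solvent signal, and 17 of the lower genes a low-dose signal, below the filter level. Across all 27307 probe sets past the filter, 811 (2.97%) were higher and 1243 (4.55%) lower.

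**Figure D1:**
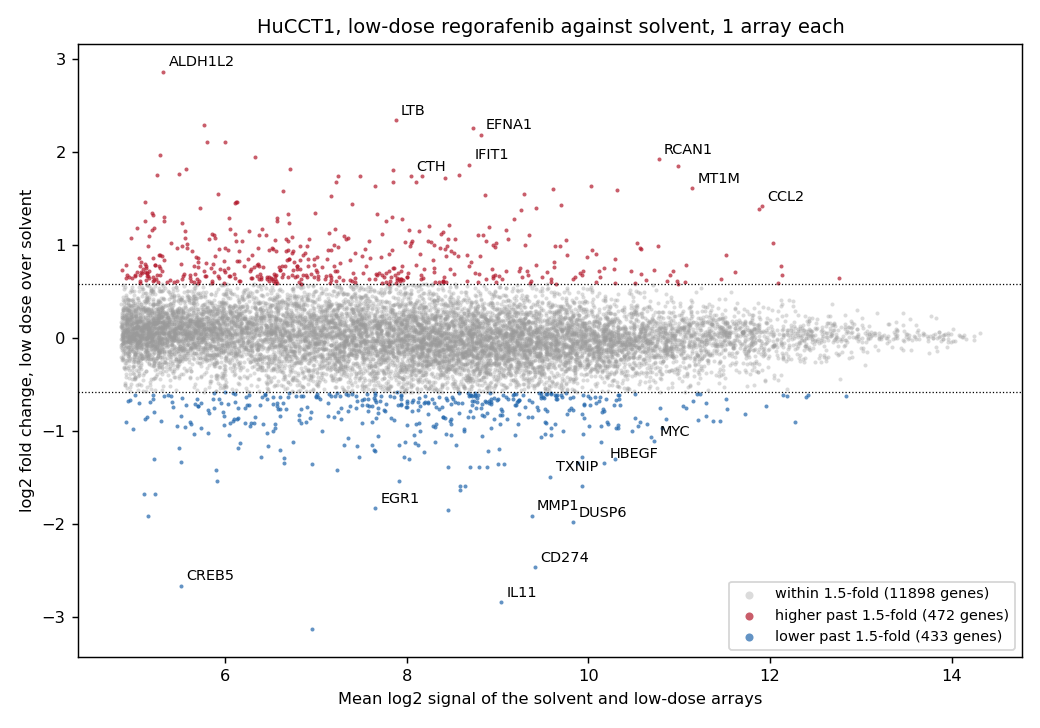
Log2 fold change at the low dose (vertical axis) against the mean log2 signal of the solvent and low-dose arrays (horizontal axis) for the 12803 genes past the level filter, with dotted lines at 1.5-fold. The 472 genes higher and 433 lower lie at all but the highest signals, and IL11, CD274 and DUSP6 are far below the lower line at high signals.

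Among genes with a symbol in the annotation used here, the 4 lower past 4-fold were SHISA2, IL11, CREB5 and CD274, which are named here because their values were seen. IL11, a cytokine of the interleukin 6 family, had a signal of 1411 with solvent, 197 with the low dose and 57.5 with the high dose. Its log2 fold change at the low dose was −2.84. CD274, which encodes the immune checkpoint ligand PD-L1, had signals of 1606, 290 and 736 in the same order, a log2 fold change of −2.47 at the low dose. SHISA2 had signals of 369, 42.1 and 67.3. CREB5, a transcription factor of the CREB family, had 115 with solvent and 18.1 at the low dose, below the filter level. Of the 2 probe sets of CREB5 past the filter, only the brighter was called. For SHISA2, CD274 and CREB5 the low-dose array held the lowest of the HuCCT1 signals, and CREB5 had a log2 fold change of −2.67 with the low dose and 1.32 with the high dose, both against the same solvent array.

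The 7 higher past 4-fold, within the same annotation, were ALDH1L2, LTB, TMT1A, HMGN2P46, EFNA1, TCIM and C9orf152. ALDH1L2, a mitochondrial folate enzyme, had signals of 14.8 with solvent, 108 with the low dose and 257 with the high dose, so that its log2 fold change of 2.87 starts below the filter level. LTB, which encodes lymphotoxin beta, a membrane protein of the TNF family, had signals of 105, 531 and 181. EFNA1, the membrane-bound ligand ephrin A1 of Eph receptors, had 211, 961 and 752. TMT1A, TCIM and C9orf152 had solvent signals between 24.6 and 30.9. Of the 2 probe sets of TMT1A past the filter, only the brighter was called. HMGN2P46 is a pseudogene, whose probe set may also read its near-identical relatives. It had signals of 194 with solvent and 931 at the low dose. So LTB and EFNA1 reached their highest HuCCT1 signal at the low dose, whereas ALDH1L2 was highest at the high dose.

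The MAP kinase phosphatases had the lowest median of the lists examined. All 10 genes of this list passed the filter, and 6 were lower and none higher, with a median log2 fold change of −1.09 beside 0.02 for all genes. For this list and those below, the shares of all genes to set beside such counts are 3.69% higher and 3.38% lower. DUSP6, which dephosphorylates ERK in the cytoplasm, had signals of 1812 with solvent, 458 with the low dose and 256 with the high dose. Its log2 fold change at the low dose was −1.99, and its 3 probe sets had values between −2.0 and −1.98. All 3 probe sets of DUSP6 thus gave nearly the same fall. DUSP5, a nuclear ERK phosphatase, fell from 671 to 222 (log2 fold change −1.60), and DUSP4 from 1506 to 591 (−1.35, with 3 probe sets between −1.36 and −1.33). DUSP7 had −1.15 and DUSP2 −1.03. DUSP1, which acts on several MAP kinases, had −1.54 by its brightest probe set (411 with solvent and 141 at the low dose), but its 3 probe sets ran from −1.54 to 0.44 and do not give a single direction. The 0.44 came from a dim probe set, with 36.9 with solvent and 50.2 at the low dose. The remaining probe set, also dim, had 55.4 and 31.9 (−0.79). DUSP8, DUSP10 and DUSP16, which act on the stress kinases JNK and p38, had values of 0.08, 0.17 and 0.26, and DUSP14 had −0.55. A lower signal can come from less RNA per cell or from fewer cells that carry it, which cannot be told apart in RNA from whole cultures.

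The other feedback genes of the ERK pathway were lower in part. Of 9 Sprouty, Spred and ETV genes past the filter, 4 were lower and none higher, with a median of −0.41. SPRY2, an inhibitor of signalling between receptors and RAS, had signals of 409, 165 and 150 with solvent, low and high dose. Its log2 fold change at the low dose was −1.31. SPRED1 had −1.0, SPRY4 −0.80 and ETV4, a transcription factor induced by ERK, −0.79. The further probe sets of SPRED1 and ETV4 had the same sign and were within 1.5-fold. ETV5, SPRED2 and SPRY1 had −0.41, −0.29 and −0.07, and ETV1 had 0.18.

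Of 20 immediate early genes past the filter, 10 were lower and none higher, and 18 of the 20 values were negative, with a median of −0.63. EGR1, a zinc finger transcription factor, had signals of 380 with solvent, 107 with the low dose and 210 with the high dose. Its log2 fold change at the low dose was −1.83, with 3 probe sets between −1.83 and −1.15. FOSL1, which encodes the AP-1 subunit FRA1, had 860, 336 and 305 (−1.36 at the low dose), and MAFF, a small MAF protein, had 1975, 800 and 693 (−1.30). JUN fell from 1664 to 767 at the low dose (−1.12, with all 4 probe sets lower) and stood at 1913 at the high dose. MYC had 2480, 1149 and 787, a log2 fold change of −1.11 at the low dose. The other 5 called genes were JUND, IER3, PHLDA1, IER2 and FOS, with log2 fold changes between −0.93 and −0.74. ATF3, ZFP36, NR4A1 and JUNB were within 1.5-fold, with −0.07, −0.08, 0.16 and 0.22, so the list did not move as a whole. JDP2, a repressor that pairs with JUN, was higher, with signals of 208, 702 and 919 and a log2 fold change of 1.75 at the low dose.

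The promoter of EGR1 is shown because it holds the best known switch of an immediate early gene, the CArG box bound by serum response factor. The stretch is chr5:138465344-138465435 of GRCh38.p14 on the plus strand, taken from RefSeq promoter windows of 250 bases before to 50 bases after the start of a gene, and the capitals mark both CArG boxes, which begin 105 and 83 bases before the start.
EGR1: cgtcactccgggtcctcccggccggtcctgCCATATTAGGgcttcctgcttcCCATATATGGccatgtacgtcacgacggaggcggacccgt
Both strands were searched. Of the 338 genes lower at the low dose with such a window, 2.37% held a CArG box, beside 2.45% of 368 genes higher and 1.56% of the 10343 genes past the filter (1.6% of all 27305 genes in the promoter table). EGR1 was the only immediate early gene of the 14 with a window that held it.

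Genes upstream of these were also measured. Of 14 genes of the cascade from RAS to ERK past the filter, 13 were within 1.5-fold, with log2 fold changes from −0.56 for RASA2, which inactivates RAS, to 0.40 for the RAS activator SOS1. HRAS, ARAF, MAP2K1, MAP2K2 and MAPK3 had values between −0.20 and 0.32. The exception was RASGRP1, an activator of RAS, with signals of 56.1 with solvent, 198 with the low dose and 392 with the high dose and a log2 fold change of 1.82. Of 13 receptor kinases that regorafenib targets, 7 passed the filter and none was called, with values from −0.39 for EPHA2 to 0.43 for FGFR2. KDR, FLT4, KIT, PDGFRA, PDGFRB and CSF1R were below the filter, so no fold change is described for them.

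Several ligands of the EGF receptor were lower, and a ligand of ERBB3 was higher. Of 9 genes of the EGF family list past the filter, 4 were lower and 1 higher. HBEGF, heparin-binding EGF, had signals of 1839 with solvent, 722 with the low dose and 916 with the high dose, and its log2 fold change at the low dose was −1.35. TGFA had 1433, 743 and 897 (−0.95), EREG 3206, 1734 and 2085 (−0.89), and ERRFI1, an inhibitor of the EGF receptor, −0.72. NRG1, neuregulin, had 380, 637 and 382, a value of 0.75 at the low dose. The further probe sets of TGFA and NRG1 reached only −0.32 and 0.34. The receptors themselves were within 1.5-fold, with −0.17 for EGFR, 0.47 for ERBB2 and 0.55 for ERBB3.

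Of 19 G1 genes past the filter, 5 were lower, 1 was higher and 13 were within 1.5-fold, with a median of −0.05. CCNE1, cyclin E1, had signals of 389, 189 and 211 with solvent, low and high dose. CDC25A, which activates cyclin-dependent kinases, had 562, 280 and 280. CCND1, cyclin D1, had 2506, 1368 and 1288. Their log2 fold changes at the low dose were −1.04, −1.0 and −0.87, and the probe sets of CDC25A and CCND1 were all called the same way. The CDK inhibitor CDKN1A had −0.79 and CCNE2 −0.68, whereas CDKN1C had 0.99 and CDKN1B, with signals of 1253 and 1478, had 0.24. Of 30 DNA replication genes, 1 was lower, MCM10 with −0.59 by 1 of its 3 probe sets, and the median was −0.13. UHRF1, a gene of DNA methylation maintenance, had signals of 1800 with solvent, 1399 with the low dose and 773 with the high dose, a low-dose value of −0.36. None of 27 mitosis genes was called, and their median was 0.03.

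Every one of the 23 ribosome biogenesis genes past the filter had a negative value. Of these, 14 were lower, none was higher, and the median was −0.65. The list includes MYC, which regulates many of the others. LYAR, a nucleolar protein of growing cells, had signals of 1029 with solvent, 492 with the low dose and 665 with the high dose, and GRWD1, a chaperone of ribosomal proteins, had 386, 205 and 208. Their log2 fold changes at the low dose were −1.07 and −0.91, and both probe sets of LYAR were lower. NOP16, a nucleolar protein, had −0.90 by its brightest probe set, but its 4 probe sets ran to −0.01. WDR43 had −0.88, RRP12 −0.87 and RRS1 −0.76, and a further probe set of RRP12 had 0.18. The abundant nucleolar genes NCL, FBL and NPM1 had −0.21, −0.15 and 0.00. The ribosomal proteins differed from the factors that assemble them, as none of 31 was called and their values lay between −0.03 and 0.18. Their signals are among the highest on the arrays, where fold changes were small in general.

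The E-box CACGTG, the site bound by MYC and its partner MAX, is shown in the promoters of a pair of the lower genes. LYAR lies on the minus strand (chr4:4290050-4290115) and DDX21, a nucleolar helicase with a log2 fold change of −0.61, on the plus strand (chr10:68956586-68956646), both in GRCh38.p14. The capitals mark the E-box, which begins 64 and 31 bases before the start.
LYAR: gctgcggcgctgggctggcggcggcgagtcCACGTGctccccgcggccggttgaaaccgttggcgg
DDX21: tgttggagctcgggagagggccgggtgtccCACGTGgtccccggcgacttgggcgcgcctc
Of the 338 lower genes with a promoter window, 69 (20.4%) held the E-box, beside 9.51% of the 368 higher genes, 12.4% of genes past the filter and 8.77% of all genes in the promoter table. Among ribosome biogenesis genes it was held by 9 of 17 with a window, and by 6 of the 11 that were lower. These are counts of letters in a window and were not tested.

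Secreted and invasion-related genes that were lower included proteases and a matrix receptor. Of 15 matrix protease and plasminogen genes past the filter, 4 were lower and none higher, with a median of −0.04. MMP1, interstitial collagenase, had signals of 1288 with solvent, 342 with the low dose and 385 with the high dose, a low-dose log2 fold change of −1.91. PLAT, tissue plasminogen activator, had 825, 322 and 190 (−1.36). MMP10 had 80.3, 39.4 and 22.9 (−1.03), and PLAUR, the urokinase receptor, had 1195, 596 and 774 (−1.0), with further probe sets up to −0.39. The 11 others, among them PLAU, MMP2, MMP7, MMP9, MMP14 and the inhibitors TIMP1 to TIMP3, were within 1.5-fold. ITGA2, the integrin chain that binds collagen, had signals of 1794, 919 and 770 (−0.97 at the low dose, by both probe sets), and ITGB8, an integrin chain that activates TGF-beta, had 563, 1118 and 967 (0.99).

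Genes of epithelial to mesenchymal transition moved little. Of those past the filter, 5.26% were higher and 5.26% lower, near the 3.69% and 3.38% of all genes. Of 19 in the list, ZEB1, a repressor of epithelial genes, was lower with −0.88, from 47.3 with solvent to 25.8 below the filter level, though its other probe set had −0.03, and CLDN3, a tight junction protein, was higher with 0.64. SNAI2 had signals of 914 with solvent, 681 with the low dose and 1282 with the high dose. Its value at the low dose was −0.42. CDH1, CDH2, VIM and FN1 had values between 0.04 and 0.33, and none of 8 keratins was called. Of 22 YAP/TAZ targets, 3 were lower and 3 higher (13.6% each way), with a median of −0.06. CCN2 (CTGF), a secreted matrix protein, had 278 with solvent and 115 at the low dose (−1.28), and CCN1 (CYR61) had 5689 and 4860 (−0.23). AJUBA, an adaptor of the Hippo pathway, and GADD45A were higher, with 0.68 and 0.85. CCN3, a relative of both CCN genes, was higher by its 2 probe sets, from 85.0 to 245 (1.52).

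The interleukin 6 family was split. Of 10 genes past the filter, 3 were lower, namely IL11, LIF with −0.65 and IL6R with −1.30, from 58.6 to a low-dose signal of 23.8, below the filter level. IL6 itself was higher, with signals of 2460 with solvent, 4021 with the low dose and 1886 with the high dose and a low-dose log2 fold change of 0.71. The signal transducers IL6ST and STAT3 had 0.05 and 0.14. Among chemokines, 5 of 11 were higher and none lower. CCL2, which attracts monocytes, had 2357, 6298 and 3230 in the same order (1.42 at the low dose). CCL28, a mucosal chemokine, had 442, 955 and 228 (1.11, with all 3 probe sets higher). CXCL10 had 27.8 with solvent, below the filter level, and 46.0 at the low dose (0.73). CCL20 had 0.65 and CXCL6 0.59, while CXCL1, CXCL2, CXCL3, CXCL5 and CXCL8 were between −0.20 and 0.07. IL6, CCL2 and CCL28 each had their highest HuCCT1 signal at the low dose.

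Of 14 NF-kB genes past the filter, 4 were higher and none lower, with a median of 0.29. TNFAIP2, a gene induced by TNF, had signals of 2326, 6101 and 9951 with solvent, low and high dose (1.39 at the low dose, and 0.32 by its other probe set). The inhibitors NFKBIA and NFKBIE had 0.79 and 0.66 and the adhesion molecule ICAM1 had 0.60. The subunits RELA and NFKB1 had −0.11 and 0.04. MAP3K8, a kinase that can activate both NF-kB and MEK, had signals of 190, 625 and 896. Its 2 probe sets had low-dose values of 1.72 and 0.60. Genes of the TNF family moved both ways, with 4 of 15 higher and 2 lower. The ligand TNFSF10, which is TRAIL, had 424, 1120 and 506 (1.40), and TNFRSF11B, the soluble decoy receptor osteoprotegerin that can bind TRAIL, had 594, 1848 and 745 (1.64). The 2 lower genes were TNFRSF10A and TNFRSF10D, both receptors of TRAIL, which went from 726 to 313 (−1.21) and from 293 to 132 (−1.16). The further probe sets of TNFSF10, TNFRSF11B and TNFRSF10A were all called the same way.

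Of 32 interferon-stimulated genes past the filter, 10 were higher and none lower, and 28 values were positive, with a median of 0.34. The largest values belonged to the IFIT genes, whose proteins bind foreign RNA. IFIT1 had signals of 216 with solvent, 787 with the low dose and 492 with the high dose, IFIT2 had 98.4, 329 and 268, and IFIT3 had 450, 1367 and 1113. Their log2 fold changes at the low dose were 1.87, 1.74 and 1.60. All 3 were highest at the low dose. SAMD9L, an inhibitor of translation, had 1.35, XAF1 1.03 and TRIM22 0.97. In contrast ISG15, MX1, OAS2, OAS3, IFI6 and IFI27, commonly used markers of an interferon response, had values between 0.01 and 0.18, and the transcription factor subunit IRF9 had −0.12. SLFN5, which is not in the list and belongs to a family induced by interferon, had signals of 157, 526 and 872, and its 6 probe sets had values between 1.45 and 1.74. Of 14 antigen processing genes, 3 were higher, IRF1 with 0.88, PSMB9 with 0.72 and NLRC5 with 0.65, and 13 values were positive with a median of 0.33. CD274, which is induced by interferon through IRF1 in many cells, was lower on the same pair of arrays.

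The promoters of IFIT1 and IFIT3 are shown because they hold the interferon-stimulated response element (ISRE), searched as GAAANNGAAA on both strands. Each holds 2 copies, in capitals, which read as the opposite strand of that motif. They lie in GRCh38.p14 on the plus strand, at chr10:89392477-89392559 for IFIT1 and chr10:89327811-89327914 for IFIT3.
IFIT1: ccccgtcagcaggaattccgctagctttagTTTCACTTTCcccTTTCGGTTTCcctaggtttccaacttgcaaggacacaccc
IFIT3: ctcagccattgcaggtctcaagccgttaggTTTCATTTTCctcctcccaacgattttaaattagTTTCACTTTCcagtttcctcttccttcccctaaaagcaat
The copies begin 116 and 103 bases before the start of IFIT1 and 156 and 122 bases before that of IFIT3, and none shares a base with the other motifs searched. Of the 368 higher genes with a promoter window, 40 (10.9%) held the element, beside 4.44% of the lower genes, 3.83% of genes past the filter and 4.38% of all genes in the promoter table. In the interferon-stimulated list it was held by 17 of 25 genes with a window, among them ISG15, MX1 and OAS3, which were within 1.5-fold, so that its presence did not sort higher members from the others.

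Of 16 amino acid and one-carbon enzymes past the filter, 6 were higher, none lower and 10 within 1.5-fold, with a median of 0.26. CTH, which makes cysteine from cystathionine, had signals of 144 with solvent, 483 with the low dose and 1930 with the high dose, and PSPH, the last enzyme of serine synthesis, had 366, 1070 and 1750. ASNS, asparagine synthetase, had 507, 1363 and 4907. Their log2 fold changes at the low dose were 1.74, 1.55 and 1.43, and all probe sets of CTH and PSPH past the filter were higher. PHGDH, the first enzyme of serine synthesis, had 1.21 and PCK2 1.07, while PSAT1, the step between PHGDH and PSPH, had −0.33, and CBS, which makes the cystathionine that CTH uses, had 0.04. The folate enzymes MTHFD2 and SHMT2 had 0.21 and 0.31, in contrast to ALDH1L2.

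Regulators of the integrated stress response were also higher in part, with 6 of 18 higher, 2 lower and a median of 0.40. CHAC1, which degrades glutathione, had signals of 83.2, 278 and 662 with solvent, low and high dose. DDIT3, the transcription factor CHOP, had 316, 726 and 2898. SESN2, an inhibitor of mTORC1, had 96.0, 210 and 631. Their low-dose log2 fold changes were 1.74, 1.2 and 1.13. DDIT4, another inhibitor of mTORC1, had 1.03, TRIB3 0.96 and ATF4 itself 0.78. The lower members were ATF5 with −0.74, whose 3 probe sets ran to 0.20, and PPP1R15A, a subunit of the phosphatase that ends the response, with signals of 280, 182 and 701 and a low-dose value of −0.62. Of 18 amino acid transporters, the cystine carrier SLC7A11 (1.04, with a further probe set at 0.34) and SLC1A4 (0.64) were higher and SLC7A6 (−0.89) lower. Of 17 tRNA synthetases, AARS1 (0.90) and CARS1 (0.61) were higher. In the list of ER chaperones and degradation factors, HERPUD1 was higher (0.91, and 0.36 by its other probe set) and the 17 others were within 1.5-fold, with −0.13 for the main chaperone HSPA5. None of 11 heat shock genes was called. Of 18 NRF2 targets, SLC7A11 alone was called, and HMOX1 and NQO1 had −0.11 and −0.17.

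The promoters of CHAC1 and ASNS are shown because they hold the element bound by ATF4 and C/EBP factors (CARE), searched as TGATGNAA on both strands. CHAC1 lies on the plus strand (chr15:40953232-40953299) and ASNS on the minus strand (chr7:97872439-97872506) of GRCh38.p14. The capitals mark the element, which begins 209 and 68 bases before the start and in CHAC1 reads as the opposite strand.
CHAC1: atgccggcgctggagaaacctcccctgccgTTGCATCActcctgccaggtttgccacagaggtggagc
ASNS: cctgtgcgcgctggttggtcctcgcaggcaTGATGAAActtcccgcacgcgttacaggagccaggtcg
Of the 368 higher genes with a promoter window, 30 (8.15%) held the element, beside 2.66% of the lower genes, 2.87% of genes past the filter and 4.46% of all genes in the promoter table. In the lists, CHAC1 was the only one of 6 higher stress response regulators, and ASNS the only one of 4 higher enzymes with a window, to hold it. Among all members past the filter with a window, it was held by 3 of 17 regulators and 2 of 12 enzymes. The other holders, ATF3, CEBPG and GOT1, were within 1.5-fold. The short windows miss elements that lie further away or after the start.

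**Figure D2:**
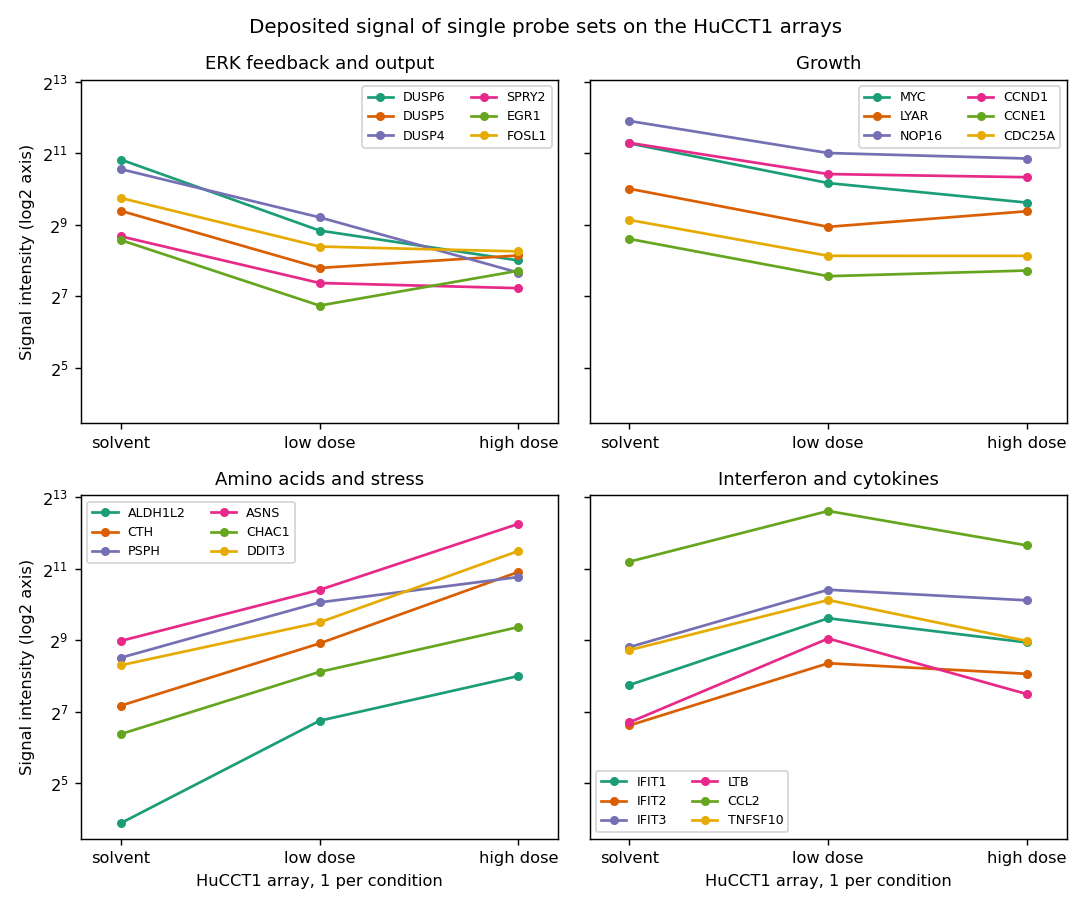
Deposited signal on a log2 axis for 24 genes on the HuCCT1 solvent, low-dose and high-dose arrays, 1 array each, with lines joining the points of a gene. Signals of ERK output and growth genes are lower at the low dose than with solvent, those of amino acid and stress genes are higher at each dose, and those of IFIT1, LTB, CCL2 and TNFSF10 are highest at the low dose.

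Several smaller groups held genes with large values. The ID proteins, which block differentiation factors, and feedback genes of the BMP and TGF-beta pathways had 5 of 14 higher and 2 lower, with a median of 0.28. SMAD6, an inhibitor of BMP signalling, had signals of 114 with solvent, 355 with the low dose and 140 with the high dose (1.63 at the low dose). ID3 had 381, 991 and 1144 (1.38), ID2 1.02, BAMBI 0.93 and ID1 0.89. The BMP antagonist NOG was lower, from 198 to 77.8 (−1.35), as was SMURF2, a ligase that degrades SMAD proteins, from 2396 to 1144 (−1.07, with all 4 probe sets lower). ID1, SMAD6 and ID2 were above solvent at the low dose and lower or less high at the high dose, with high-dose values of −0.61, 0.29 and 0.46 against the same solvent array.

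TXNIP, a glucose-regulated inhibitor of thioredoxin and glucose uptake, had signals of 1284 with solvent, 456 with the low dose and 2610 with the high dose, and its relative ARRDC4 had 315, 171 and 703. Their log2 fold changes at the low dose were −1.49 and −0.88, and those at the high dose 1.02 and 1.16. The low dose was thus below and the high dose above the same solvent array, and all 3 probe sets of TXNIP were lower at the low dose, from −1.81 to −1.49. The other 5 alpha-arrestins and MondoA family genes of the list were within 1.5-fold. Of 31 glycolysis and hypoxia genes, 5 were lower and none higher. HK2, which traps glucose in the cell, had 841, 408 and 231 (−1.04 at the low dose), and the glucose carrier SLC2A1 had 1156, 674 and 363 (−0.78). ADM had −0.85, ANKRD37 −0.69 and NDRG1 −0.61. The later enzymes LDHA, PGK1, ENO1 and PKM had values between −0.11 and 0.04.

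Of the remaining genes with agreeing probe sets, RCAN1, a feedback inhibitor of calcineurin, stood out by its level, with signals of 898 with solvent, 3410 with the low dose and 8338 with the high dose and probe set values of 1.91 and 1.92. The metallothionein MT1M had 1289, 3953 and 7973 (1.62), while the 7 other genes of that list were between −0.22 and 0.30. Probe sets of this gene family can read near-identical relatives. AKAP12, a scaffold of protein kinase A, had 670, 185 and 190 (−1.86, with 3 probe sets between −2.33 and −1.86). Other falls among these genes were those of the adhesion receptor ADGRF1 (−1.39, with all 4 probe sets lower), the focal adhesion protein TNS4 (−1.39), NAV3 (−1.39), the gap junction gene GJC1 (−1.53), the antimicrobial RNASE7 (−1.42) and TAF4B (−1.29), a cell-type-specific subunit of TFIID. Other higher genes were the long non-coding RNA GSEC (1.95), the glutathione transferase GSTM4 (1.55), the adaptor SORBS2 (1.54), the ubiquitin ligase TRIM2 (1.47) and the non-coding MAP4K3-DT (1.45). With a single probe set past the filter, STEAP4, a metalloreductase, had 1.68, GPAT3, an enzyme of glycerolipid synthesis, had −1.64, LINC00973 −1.60 and SCG5 −1.39.

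Of p53 targets, 2 of 19 were higher (SESN2 and GADD45A) and 3 lower (AEN with −1.12, CDKN1A with −0.79 and SFN with −0.61). In the BCL2 family, BCL2A1 was lower (−0.97) and the 13 others were within 1.5-fold, among them BCL2L11, which encodes the cell death activator BIM. Its 6 probe sets had values between −0.33 and 0.20. PTGS2 had −0.30 and −0.31 by its 2 probe sets. The AHR target genes CYP1B1 and TIPARP had −0.89 and −0.77, the splicing factors SRSF7 and SRSF6 −0.76 and −0.72 and the kinase CLK4 0.60, with a further probe set of SRSF7 at 0.43. The autophagy gene GABARAPL1 was higher (1.00), ATG16L1 lower (−0.60) and the 20 others of that list within 1.5-fold. These calls were 4.55% of the list each way, near the 3.69% higher and 3.38% lower of all genes. Of 12 Kruppel-like factors, KLF2 was lower (−0.77, and 0.15 by its dimmer probe set). The bile duct markers SOX9 and CFTR had −1.03 and 0.86. None of 32 oxidative phosphorylation subunits and none of 18 cholesterol synthesis genes was called, with medians of 0.10 and 0.02.

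**Figure D3:**
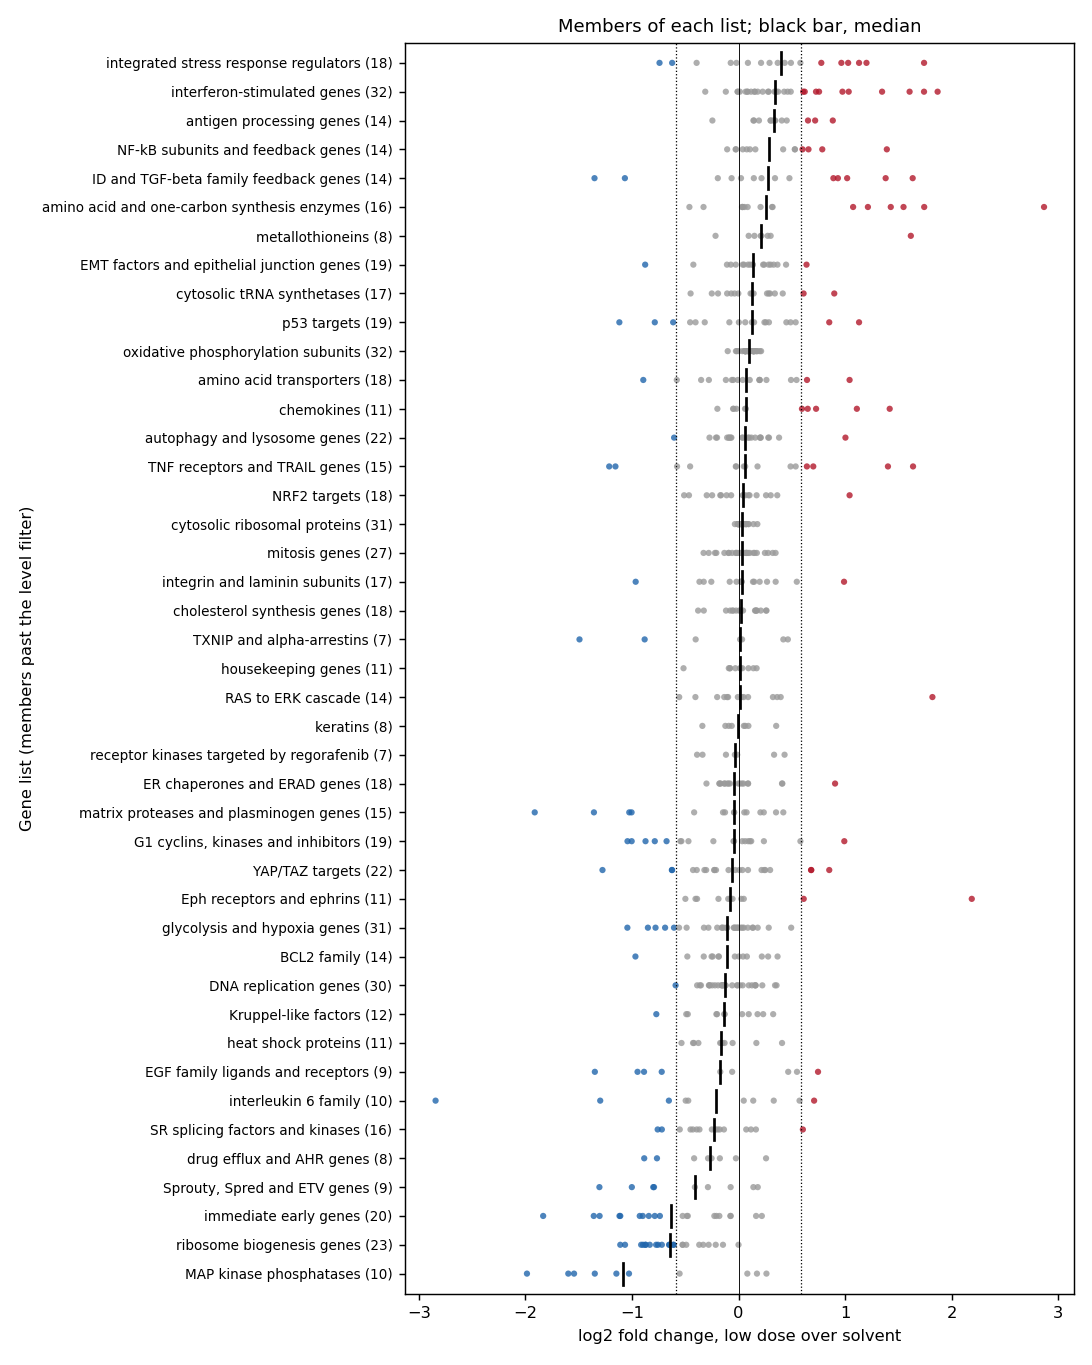
Log2 fold change at the low dose (horizontal axis) of each member past the level filter, by gene list, with the number of members in parentheses, black bars at the medians and dotted lines at 1.5-fold. Lists are ordered by median, from 0.40 for integrated stress response regulators to −1.09 for MAP kinase phosphatases.

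The 48 lists held 713 genes past the filter, of which 65 (9.12%) were higher and 79 (11.1%) lower, and 11 lists had no member called. These lists were drawn up with earlier results of these data known, so shares above those of all genes are not independent evidence.

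The probe sets of a gene read the same RNA pair at different positions, and their spread is the sole error these arrays give. It holds no difference between cultures. Of 6157 genes with at least 2 probe sets past the filter, the SD of the log2 fold change between probe sets had a median of 0.13, a 75th percentile of 0.21 and a 95th percentile of 0.40. The 1.5-fold cutoff of 0.585 exceeds these values, but most of these genes were within 1.5-fold by their brightest probe set. In called genes the spread was larger, with a median SD of 0.24 for higher and 0.22 for lower genes. The median gap between the lowest and highest probe set of a called gene was 0.40 in both directions. Of 192 higher genes with several probe sets, 84 (43.8%) had all of them higher, 89 had the same sign without all being called and 19 had opposite signs. Of 224 lower genes, 85 (37.9%) had all of them lower, 104 had the same sign and 35 had opposite signs. So 169 genes were called by every probe set. Conversely, among 5741 genes within 1.5-fold by their brightest probe set, a further probe set was higher in 123 and lower in 362.

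**Figure D4:**
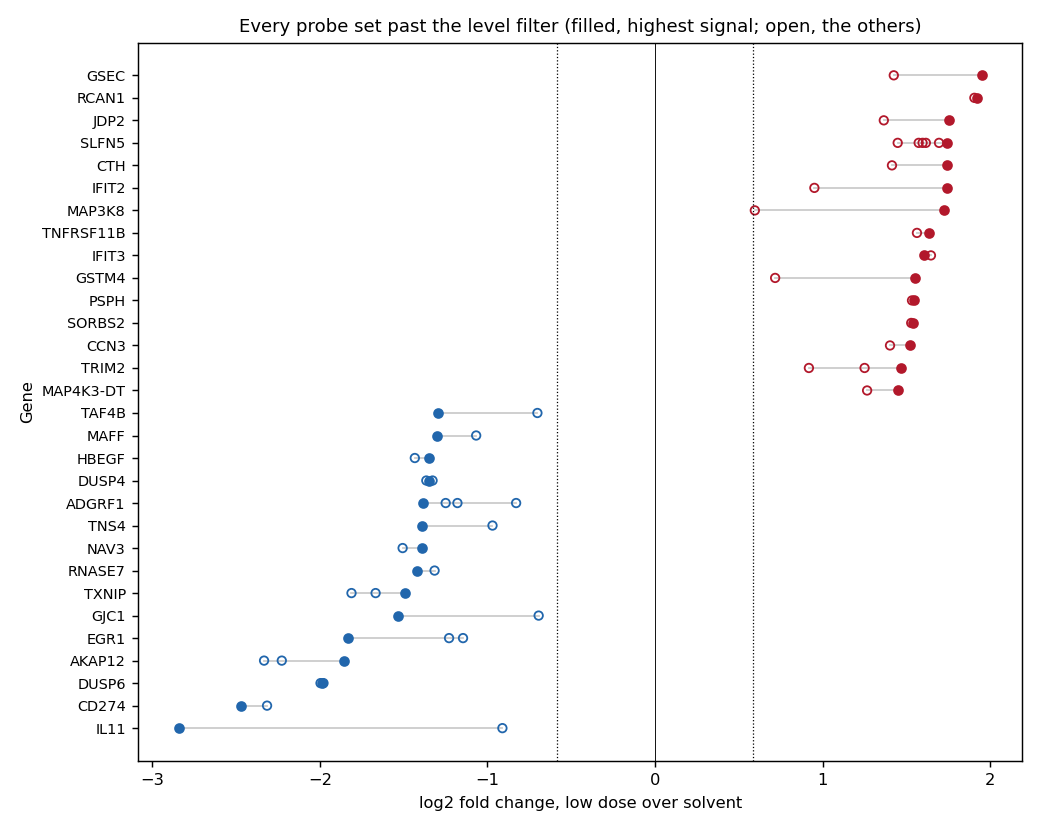
Log2 fold change at the low dose (horizontal axis) of each probe set past the level filter for the 15 largest rises and 15 largest falls among genes called by all of them, with filled points for the brightest probe set, open points for the others and dotted lines at 1.5-fold. The 6 points of SLFN5 lie between 1.45 and 1.74 and those of DUSP6 coincide, whereas those of IL11 lie at −2.84 and −0.91.

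IL11 had the widest gap of the genes in that plot, as its other probe set went from 102 to 54.3, a value of −0.91. In 3 genes probe sets were called in opposite directions. PLEKHA6 had 1.00 and −0.64. RPL37, a ribosomal protein gene, had 0.04 by its brightest probe set at a signal of 15221 with solvent, and its 3 dimmer probe sets had values from −0.61 to 0.85. INTS4 had −0.02 by the brightest of 4, and the others ran from −0.60 to 0.61. In RPL37 and INTS4 the brightest probe set was within 1.5-fold and the calls came from probe sets with solvent signals between 35.5 and 243.

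The excess of lower over higher calls among all probe sets lay outside the probe sets that represent genes. Further probe sets of named genes had 279 (2.65%) higher and 592 (5.62%) lower of 10542, and probe sets with no gene named had 38 (1.35%) higher and 161 (5.73%) lower of 2812. Lower calls exceeded higher calls among further probe sets in each of 4 equal bins of signal, with 141 against 89 in the dimmest and 58 against 21 in the brightest. Probe sets that represent genes were more often higher in the dimmest bin (100 against 39) and more often lower in the brightest (153 against 87). The share of probe sets past 1.5-fold was 6.69%, 9.95%, 8.29% and 5.16% from the dimmest to the brightest bin. Higher calls made up 3.08%, 4.32%, 2.86% and 1.63% of these bins and lower calls 3.62%, 5.62%, 5.44% and 3.53%, so the share of higher calls was larger in the dimmer bins.

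KKU-100 cells at the low dose were measured on arrays of their own and give values that share no array with those of HuCCT1. Of 11988 genes past the filter in both lines, 9.3% were higher and 7.05% lower in KKU-100 by the same probe sets. Of the genes higher in HuCCT1, 359 passed the filter in KKU-100, where 126 (35.1%) were also higher and 31 lower. These 126 were 11.3% of all genes higher in KKU-100. Of the genes lower in HuCCT1, 373 passed, where 107 (28.7%) were also lower and 28 higher, which was 12.7% of the genes lower in KKU-100. For genes higher in HuCCT1, the share lower in KKU-100 was 8.64%, beside 7.05% of all genes, and for genes lower in HuCCT1 the share higher in KKU-100 was 7.51%, beside 9.3%. None of these shares was tested, as both comparisons are pairs of single arrays.

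**Figure D5:**
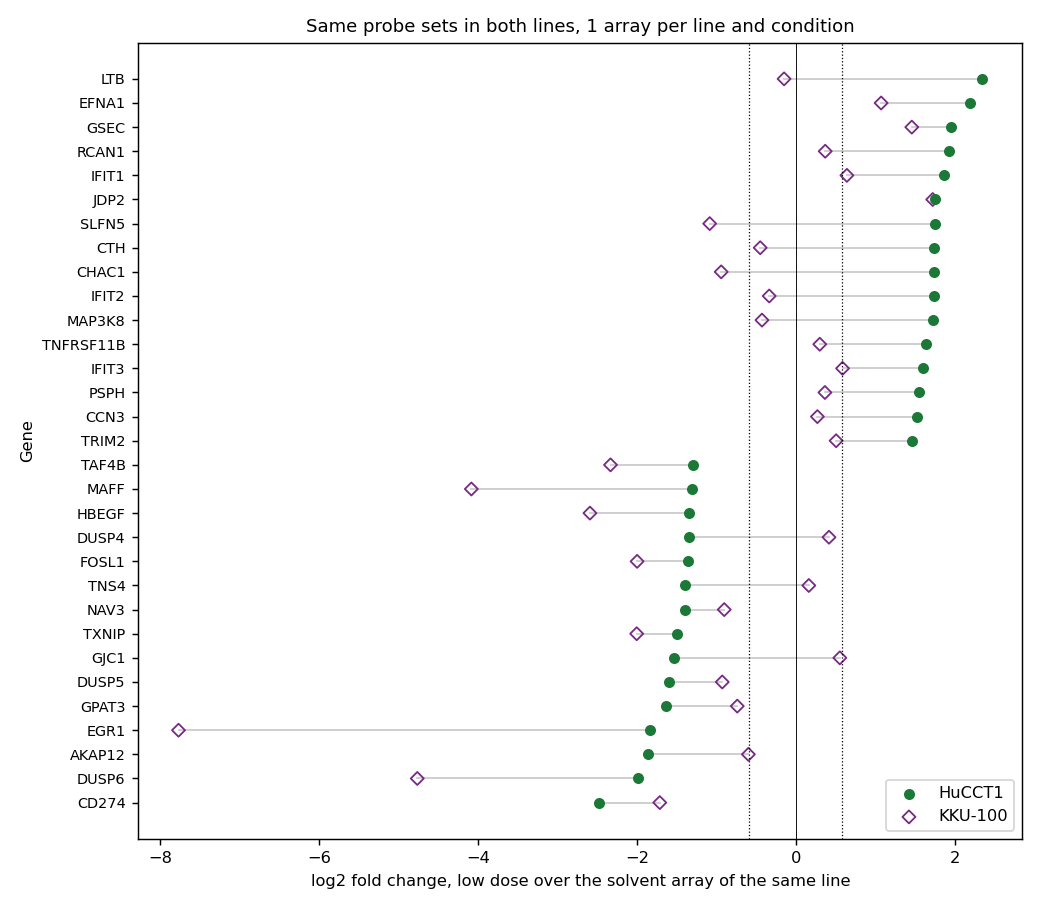
Log2 fold change at the low dose against the solvent array of the same line (horizontal axis) in HuCCT1 (filled circles) and KKU-100 (open diamonds) for 31 of the 42 genes with the largest changes in HuCCT1 that also passed the level filter in KKU-100, with dotted lines at 1.5-fold. Of 15 genes lower in HuCCT1, 12 were lower in KKU-100, and of 16 higher, 5 were higher and 2 lower.

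Among the genes with the largest changes in HuCCT1, 15 lower ones could be set beside KKU-100, and 12 of these were lower there too. EGR1 went from 7841 to 36.1 in KKU-100 (−7.76), DUSP6 from 2651 to 97.8 (−4.76), MAFF had −4.08, HBEGF −2.59, TAF4B −2.33, TXNIP and FOSL1 −2.0 and CD274 −1.71. The 3 exceptions were DUSP4 (0.42), TNS4 (0.16) and GJC1 (0.55), which were within 1.5-fold. Of the 16 higher genes, EFNA1 (1.07), GSEC (1.46), JDP2 (1.72), IFIT1 (0.64) and IFIT3 (0.59) were higher in KKU-100, and 9 were within 1.5-fold. A difference between these shares was not tested. IFIT1 and IFIT3 had KKU-100 solvent signals of 3946 and 4167, far above those of HuCCT1. Genes of the amino acid and stress response lists moved both ways in KKU-100. ASNS and SESN2 had −1.18 and −1.88, and DDIT3, CHAC1 and SLC7A11 were also lower, with −1.38, −0.94 and −1.29. ALDH1L2 and AARS1 were higher, with 0.74 and 0.76, and CTH and PSPH were within 1.5-fold, with −0.45 and 0.37. MYC and LYAR had 0.33 and −0.45.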

How the data were processed

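RNA of HuCCT1 and KKU-100 cells, with solvent or with a low or high dose of regorafenib, was measured on 6 Affymetrix arrays, 1 per condition. Groups and doses came from the sample labels. Per probe set, the deposited file holds 1 signal intensity per array on a linear scale. The submitters' processing notes name MAS5, with no version given. The methods of the paper name log2 normalization in GeneSpring. Precision is limited by the number of arrays.

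Signals were taken to log2 with no added scaling, after 62 of 54675 probe sets were set aside as controls. Symbols came from the platform annotation and were updated with RefSeq (GRCh38.p14): 41091 probe sets carry 1 symbol (41037 updated), 1801 carry several and 11721 have none in the table used. The level filter kept 27307 probe sets at or above the 50th percentile of the mean log2 signal of both arrays. The cutoff was 1.5-fold. No test was possible with 1 array a side.

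Genes were named by 5 rules: the 15 largest changes each way among genes with all of at least 2 probe sets called the same way; the 6 largest each way among genes with 1 probe set past the filter and a mean above the 75th percentile; up to 4 called members of each of 48 lists; genes with probe sets called in opposite directions; and genes that the study measured by PCR. Other list members, and genes past 4-fold, were named after their values were seen. The members and lists were chosen with earlier results of these data known. Promoter windows came from RefSeq, for 10343 of 12803 genes. The steps were tested on simulated data. Python 3.11.15 was used with numpy 2.4.6, pandas 2.3.3 and matplotlib 3.10.9. The alternatives were quantile normalization, median centring, a floor at the 20th percentile, other level filters and a 2-fold cutoff. Probe sets whose suffix (_x_at, _s_at or _a_at) marks possible matches to several transcripts or genes were also dropped. Further alternatives were the median over the probe sets of a gene, a choice of probe set over 3 arrays and a looser rule for agreement.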

Additional observations from a re-analysis of the deposited data

Results flagged for a closer look

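A pair of the genes with the largest rises in HuCCT1 moved the opposite way in KKU-100 at the low dose. In HuCCT1, CHAC1 went from a signal of 83.2 with solvent to 278, a log2 fold change of 1.74, whereas in KKU-100 it went from 258 to 135 (−0.94). SLFN5 went from 157 to 526 in HuCCT1 (1.74) and from 102 to 48.0 in KKU-100 (−1.08). Each line has 1 array per condition, and the difference was not tested.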

How the results depend on the processing

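With a cutoff of 2-fold, 184 probe sets were higher and 199 lower, 124 genes were higher and 82 lower, and 29 list members were higher and 32 lower, and 48 of 136 named genes were no longer called. With agreement defined as all probe sets past 1.2-fold, 288 genes agreed in place of 169. Quantile normalization gave 545 genes higher and 367 lower, and median centring 432 and 493, so which direction holds more genes depends on the scaling (472 and 433 without it). MCM10 was no longer called after quantile normalization, nor were ICAM1, CARS1 and CLK4 after centring. Without probe sets whose suffix marks possible matches to several transcripts or genes, 99 of the 136 named genes had a value and 37 did not. In that setting 22 of 96 counts of list members moved by over 1.5 times. Of the 99, KLF2 turned from −0.77 to 0.15 by its other probe set, and MCM10 and PLAUR were no longer called. By the median over probe sets, NRG1, MCM10, NOP16, ZEB1, COL1A1 and PLEKHA6 were no longer called. RBMS3 lost its call with the probe set chosen over 3 arrays. The other filters, the floor and that choice kept the totals of probe sets, genes and list members within 1.5 times their values. Of the 96 counts by list, the 60th percentile filter moved 2 further, both arrays above their median 2 and that choice 1. Quantile normalization moved 6 of these counts, median centring 3 and the median over probe sets 6. No paired analysis was possible because each condition has 1 array, and for the same reason no array could be left out.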
